A study of Drosophila melanogaster with 3 samples.

Results

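The E(spl) complex bHLH genes are 7 basic helix-loop-helix genes that stand in 1 cluster on chromosome arm 3R of Drosophila melanogaster: E(spl)mdelta-HLH, E(spl)mgamma-HLH, E(spl)mbeta-HLH, E(spl)m3-HLH, E(spl)m5-HLH, E(spl)m7-HLH and E(spl)m8-HLH. They were taken by symbol from the annotation, and all 7 were found among the 13945 protein-coding genes of the 6 main arms. Each has 1 annotated transcription start site. The binding data come from chromatin immunoprecipitation and sequencing (ChIP-seq) of CG30403 in embryos that carried this protein with a C-terminal eGFP. Whole embryos of mixed sex, aged 0 to 24 h, were used in 3 biological replicates with an antibody against GFP, and there was 1 group, with no other genotype, treatment or age to compare it with. The embryos mix all stages and cell types of embryogenesis, so binding in few cells is diluted, and all 3 replicates came from a single transgenic line.

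Genes of the E(spl) complex are direct targets of the Notch receptor. When a ligand activates Notch, its intracellular part enters the nucleus and joins the DNA-binding protein Su(H) and the co-activator Mastermind at their enhancers. The bHLH genes encode repressors of the Hairy/E(spl) family, which recruit the co-repressor Groucho and keep proneural genes off in the cells that receive the signal. This lateral inhibition singles out neural precursors in the embryo. The complex also holds genes of the Bearded family, which encode small antagonists of Notch ligand signalling, and gro, the gene of Groucho, lies next to it.

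The authors deposited an optimal list of 7827 regions, which passed their reproducibility filter (IDR) on the pooled replicates, and a pooled list of 30000 regions that reaches into background. Each replicate has its own list, of 29373, 30000 and 30000 regions. The signal value of a region is the authors' score, without a stated scale. Its range differs between lists, with the highest value at 1012, 2881 and 2577 in replicates 1, 2 and 3, so replicates are compared here by rank (1 is the strongest). A gene is called promoter-bound where an optimal summit lies within 500 bp of a start site, and the top list of a replicate is its 7827 strongest regions. The lists hold no read counts, so depth is unknown.

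CG30403 bound the promoters of 3 of the 7 bHLH genes, E(spl)m3-HLH, E(spl)m7-HLH and E(spl)mdelta-HLH. Binding was strongest at E(spl)m3-HLH, and the promoters of the other 4 had no optimal summit. Among all protein-coding genes 30.2% were promoter-bound, and the interval of 3 of 7 (42.9%, 95% exact binomial interval 9.9 to 81.6%) includes that background. The same 3 genes had a region in the top list of every replicate as well, against 23.7% of all genes. In the pooled list with background, 4 of the 7 had a region within 500 bp of the start site, namely these 3 and E(spl)mbeta-HLH, against 53.0% of all genes. With a window of 250 bp in place of 500 bp, 1 of the 7, E(spl)m7-HLH, was bound, against 24.4% of all genes. The complex thus differed within itself, from a promoter among the strongest regions of the genome to promoters with no region in any list.

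E(spl)m3-HLH (FBgn0002609; dm6 3R:26021823-26023127, plus strand) had the strongest region of the complex. Its summit at position 26021384 lay 439 bp upstream of the start site, in a region of 617 bp (3R:26021083-26021699). Its signal of 1497 ranked 152 of 7827, so that 1.93% of the optimal list was stronger. The region ranked 96, 168 and 170 in replicates 1, 2 and 3, with signals of 295, 642 and 572, and was thus near the top of every list. The summit also lay 308 bp upstream of the noncoding gene lncRNA:CR43644, which is transcribed from the other strand, so the region stands between a coding and a noncoding start site.

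E(spl)m7-HLH (FBgn0002633; 3R:26037038-26038019, plus strand) had 2 optimal summits, 432 and 204 bp upstream of its start site. The farther one had a signal of 670 and ranked 838, and in replicates 1, 2 and 3 it ranked 641, 1003 and 865, with signals of 132, 275 and 259. The nearer one had a signal of 299 and ranked 3020. In the replicates the nearer summit ranked 3343, 1915 and 1208, with signals of 50.5, 187 and 214. The farther summit was the stronger one in each replicate, and both lay in the top list of each.

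E(spl)mdelta-HLH (FBgn0002734; 3R:25997621-25998633, plus strand), the first gene of the complex, had a weaker summit 276 bp upstream of its start site. Its signal was 286 and its rank 3215. In replicates 1, 2 and 3 the region ranked 2198, 2698 and 4955, with signals of 67.0, 147 and 79.1, so replicate 3 gave it the lowest place. The promoter is shared: the same summit lay 349 bp upstream of CG43116, which is transcribed away from the complex. A second summit in the window of that gene, in an intron 433 bp downstream of its start site, had a higher signal of 519 and ranked 1337. E(spl)mdelta-HLH was the weakest of the 3 bound members, yet above the median signal of the optimal list (244).

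The sequences under the 4 summits at bound members are shown because they are the bound DNA of the bHLH genes themselves. Each covers 50 bp on either side of the summit, on the plus strand of dm6 (RefSeq Release 6), and capitals mark matches to the motifs of the main search described further on; the 3 A- and T-rich motifs added later are not marked.
E(spl)m3-HLH summit, 3R:26021334-26021434: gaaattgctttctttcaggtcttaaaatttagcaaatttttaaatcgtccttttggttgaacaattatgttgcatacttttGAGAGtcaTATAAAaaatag
E(spl)m7-HLH farther summit, 3R:26036556-26036656: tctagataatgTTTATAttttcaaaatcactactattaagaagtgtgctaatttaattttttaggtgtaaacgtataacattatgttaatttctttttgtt
E(spl)m7-HLH nearer summit, 3R:26036784-26036884: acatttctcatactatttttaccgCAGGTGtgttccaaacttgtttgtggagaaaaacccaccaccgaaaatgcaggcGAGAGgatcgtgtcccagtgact
E(spl)mdelta-HLH summit, 3R:25997295-25997395: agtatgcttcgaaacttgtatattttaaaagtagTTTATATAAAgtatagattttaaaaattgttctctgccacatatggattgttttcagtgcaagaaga
At E(spl)m3-HLH, the farther E(spl)m7-HLH summit and E(spl)mdelta-HLH the sequence is rich in A and T, with a GC content of 26.7, 20.8 and 26.7%. The nearer E(spl)m7-HLH summit is the exception, at 45.5%.

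Among the 4 bHLH genes without an optimal summit within 500 bp, E(spl)mbeta-HLH came closest to the optimal list (FBgn0002733, 3R:26005046-26006023, minus strand). The pooled list held a region 45 bp upstream of its start site, with a signal of 81.2 and rank 11835, below the weakest optimal signal of 129. In replicate 1 the best region within 500 bp ranked 7789, just inside the top list, with a signal of 26.0. In replicates 2 and 3 the best regions ranked 11728 and 12382, with signals of 36.9 and 31.7. The one in replicate 3 had its summit at another place, 397 bp upstream. The region at E(spl)mbeta-HLH was thus weak in each replicate and outside the top list in 2 of 3.

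E(spl)mgamma-HLH (FBgn0002735; 3R:25999851-26000761, plus strand) had a region in replicate 2 alone. It lay 381 bp upstream of the start site, with a signal of 22.1 and rank 19242, and the pooled list had none. E(spl)m5-HLH (FBgn0002631; 3R:26028854-26029735, minus strand) and E(spl)m8-HLH (FBgn0000591; 3R:26040240-26041008, plus strand) had no region within 500 bp of their start sites in the pooled list or in any replicate. The optimal summit nearest to the E(spl)m5-HLH start site was 6871 bp away, the farther one of E(spl)m7-HLH. For E(spl)m8-HLH it was 1396 bp downstream, beyond the end of the gene and at the promoter of gro. E(spl)m5-HLH was thus the most isolated of the 7 bHLH genes from CG30403 regions.

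**Figure D1:**
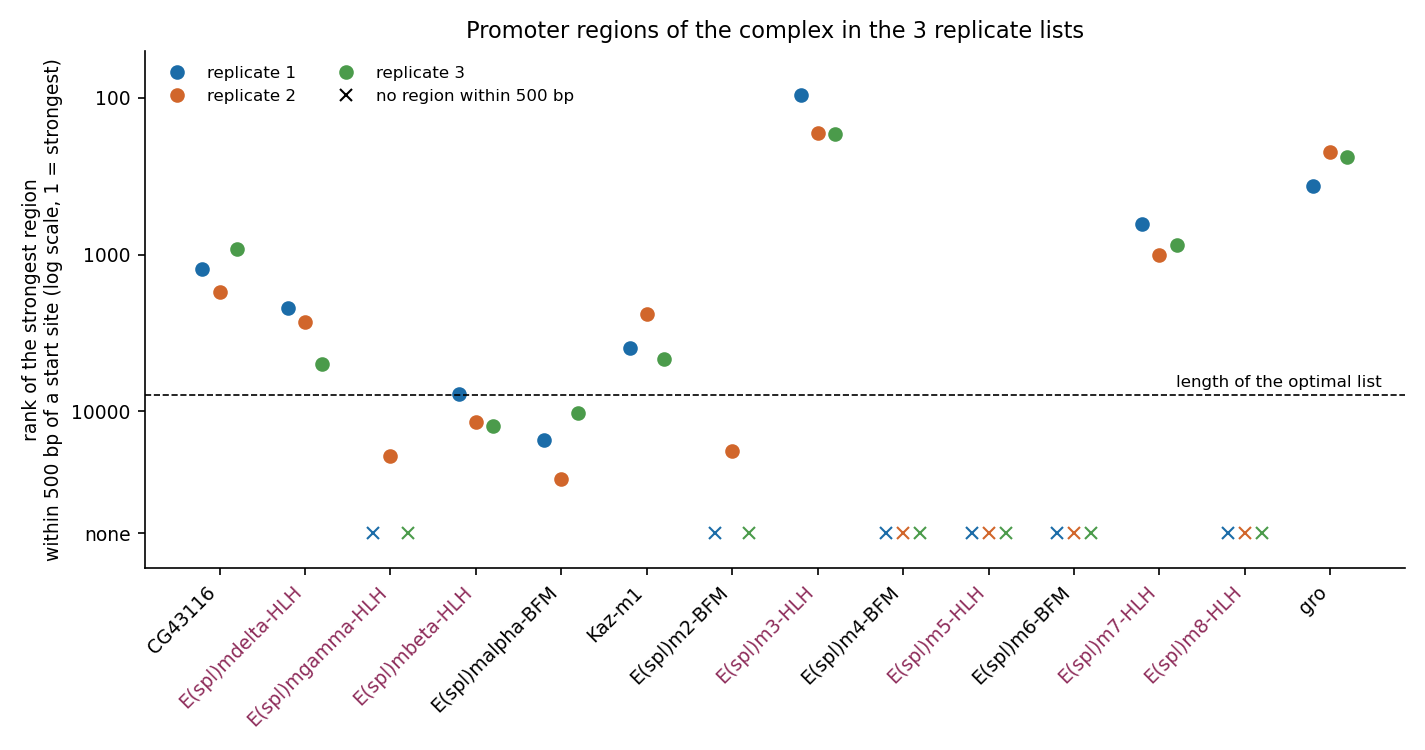
Rank of the strongest region within 500 bp of a start site for the 14 coding genes of the complex and its flanks (bHLH genes in purple, in genome order), by replicate (colours), on a log scale on which 1 is the strongest; crosses mark no region and the dashed line the length of the optimal list (7827). E(spl)m3-HLH ranks between 96 and 170 and E(spl)m7-HLH between 641 and 1003, whereas E(spl)m5-HLH and E(spl)m8-HLH have no region in any replicate.

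The 4 summits at bound members all lay upstream of the start site, at 204 to 439 bp. Upstream summits were the rule in the optimal list, with 3089 of 3601 promoter summits (85.8%). The median distance over all promoter summits was 122 bp, and 1008 of them (28.0%) lay at least 204 bp away. That limit is the distance of the nearest of the 4 summits, so all 4 reach it by construction. No optimal summit fell within the body of a bHLH gene, and no share over the bodies of all genes is given here for comparison. The pooled list had weak regions in the coding exons of E(spl)m3-HLH, E(spl)mbeta-HLH, E(spl)m7-HLH and E(spl)m8-HLH, at ranks 24555, 26251, 27711 and 29644, near the end of that list.

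Between and beside the bHLH genes, CG30403 bound further sites. The complex from the start of E(spl)mdelta-HLH to the end of E(spl)m8-HLH (3R:25997621-26041008) held 8 optimal summits, and with 10 kb on each side (3R:25987621-26051008) it held 13. Of these 13, 2 lay in the flank before E(spl)mdelta-HLH and 3 in the flank after E(spl)m8-HLH, all 3 at gro. The signals ran from 143 to 1497 with a median of 469, against a median of 244 over the optimal list, and 11 of the 13 were above that median. Among the 14 protein-coding genes that start in this window, 6 were promoter-bound, against 30.2% of all protein-coding genes. They were CG43116, E(spl)mdelta-HLH, Kaz-m1, E(spl)m3-HLH, E(spl)m7-HLH and gro. The other 19 regions that the pooled list holds in the window were not in the optimal list.

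**Figure D2:**
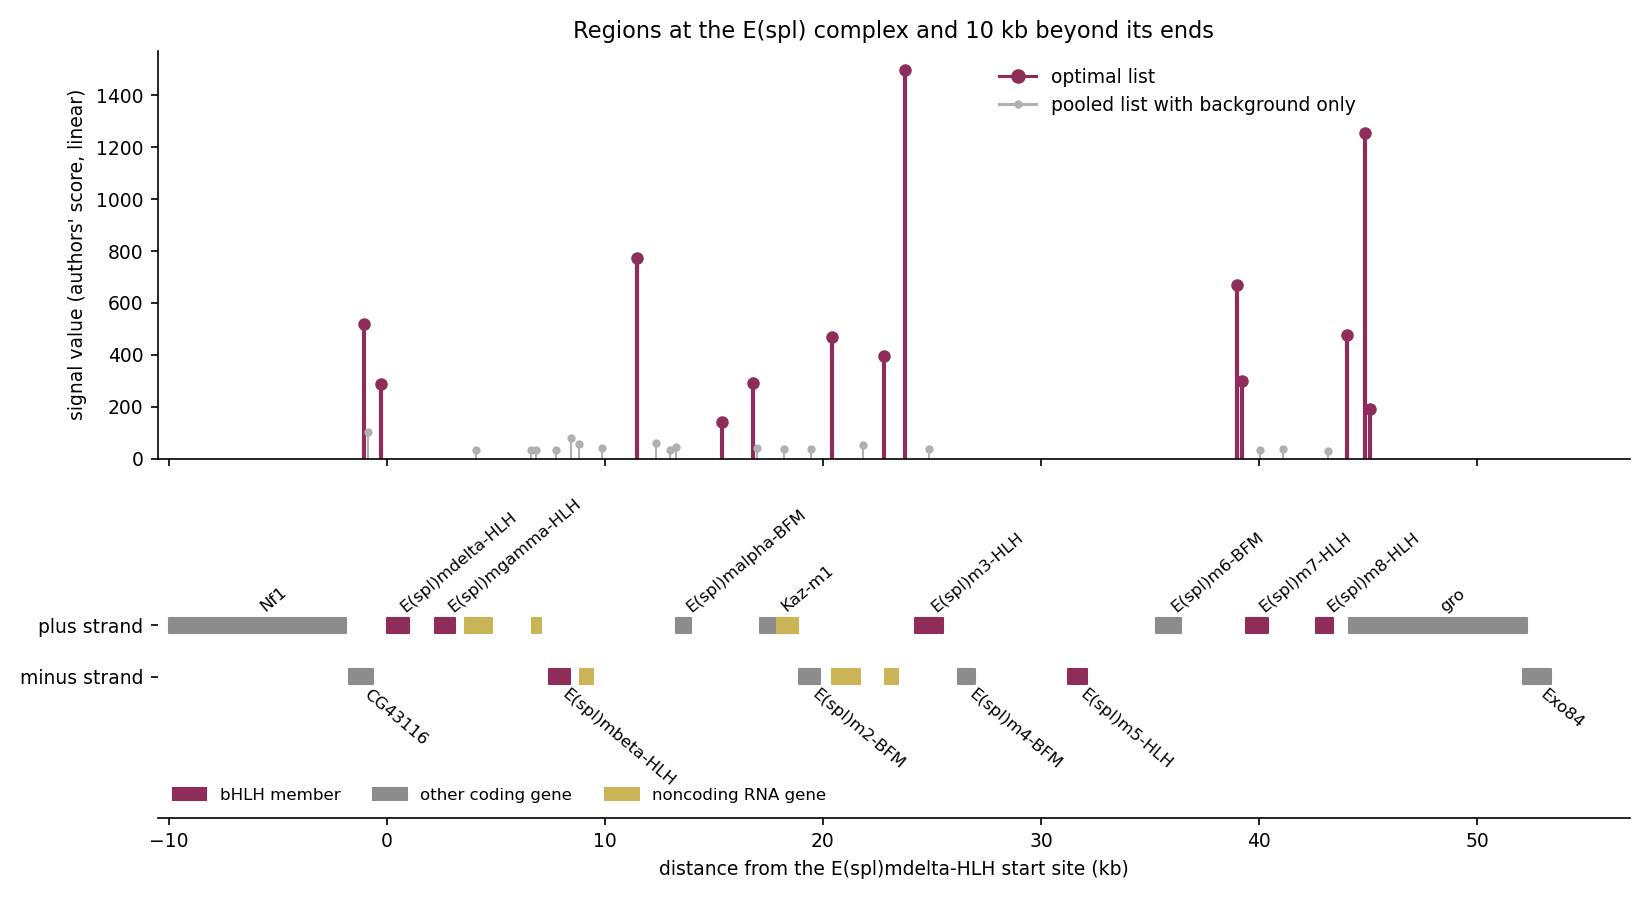
Map of the complex with 10 kb on either side; the upper panel gives the authors' signal at each summit on a linear scale (large dots, optimal list; small grey dots, regions of the pooled list only) and the lower panel the genes by strand, against distance from the E(spl)mdelta-HLH start site in kb. The summit before E(spl)m3-HLH (1497) and one in gro (1254) are the tallest, and neither list has a region from the weak one within E(spl)m3-HLH to the farther summit upstream of E(spl)m7-HLH.

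The summit at 26009099, with a signal of 774 and rank 642, lay in an intergenic stretch 1794 bp upstream of E(spl)malpha-BFM, a Bearded family gene. It ranked 562, 816 and 565 in replicates 1, 2 and 3, so it stood in the strongest 1000 regions of each replicate. It was also the optimal summit nearest to E(spl)mbeta-HLH, 3076 bp upstream of that start site. Kaz-m1, which encodes a protein with a Kazal-type protease inhibitor domain, had a summit 317 bp upstream of its start site with a signal of 293. This summit ranked 3953, 2391 and 4649 in the replicates. A second summit 1724 bp upstream of Kaz-m1 was the weakest of the 13 (signal 143, rank 7076), and it ranked 15002 in replicate 1 against 6693 and 6931 in replicates 2 and 3. It was the single summit of the 13 without a region in all 3 top lists.

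Further on, a summit at 26018044 lay in the last part of the noncoding gene lncRNA:CR43643, 574 bp upstream of E(spl)m2-BFM. It had a signal of 469 and ranked 1319, 2164 and 1261 in replicates 1, 2 and 3. Another lay between lncRNA:CR43643 and lncRNA:CR43644, 1410 bp upstream of E(spl)m3-HLH, with a signal of 396. That summit ranked 2534, 1834 and 2615 in the replicates, so E(spl)m3-HLH had a weaker summit behind its strong one. Past E(spl)m8-HLH, gro had 3 optimal summits. The one at 26042499, in an intron and 142 bp upstream of another of its 4 start sites, had a signal of 1254 and ranked 365, 220 and 238 in the replicates. The one between E(spl)m8-HLH and gro, 100 bp upstream of the first gro start site, had a signal of 477 and ranked 1447, 1805 and 1257. The weakest, in the untranslated leader of gro, had a signal of 191 and ranked 3557, 9799 and 8921. Its region overlaps that of the strong intron summit, which is why it counts as found in the top lists of replicates 2 and 3.

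**Figure D3:**
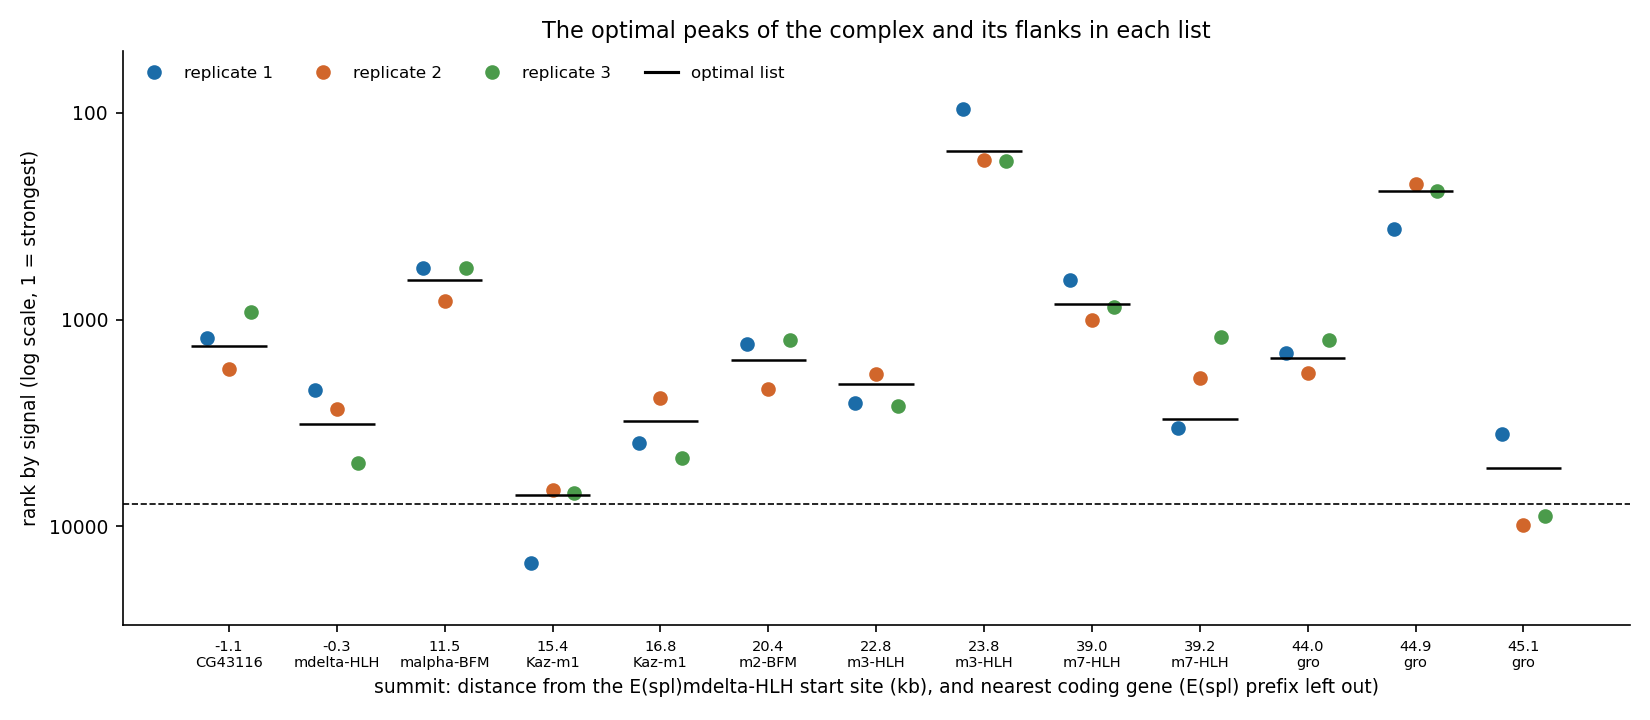
Ranks of the 13 optimal summits of the complex and its flanks in the 3 replicates (dots) and in the optimal list (bars), on a log scale on which 1 is the strongest; the horizontal axis gives distance from the E(spl)mdelta-HLH start site in kb and the nearest coding gene, and the dashed line is the length of the optimal list (7827). The ratio of the highest to the lowest replicate rank is widest at the nearer E(spl)m7-HLH summit (1208 to 3343) and the weakest gro summit (3557 to 9799), and narrowest at the summit 1410 bp upstream of E(spl)m3-HLH (1834 to 2615).

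Replicates placed these summits at nearby positions. Of the 13, 12 overlapped by at least 1 bp a region in the top list of every replicate, against 5791 of 7827 optimal peaks (74.0%). All 13 had a region in every full replicate list. The full lists are much longer than the top lists, and no share over all optimal peaks is given for them. The shift between an optimal summit and that of the replicate region had a median of 22 bp and reached at most 63 bp. Where several replicate regions overlapped, the one with the nearest summit was taken, which favours small shifts. No shift over all optimal peaks is given here for comparison. Regions were often narrower than the 484 bp that is the commonest width in the optimal list, since 4 of the 13 had this width against 59.5% of all. With a reciprocal overlap of 50% in place of 1 bp, 7 of the 13 were found in every replicate, against 53.1% of all optimal peaks.

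The intergenic summit before E(spl)malpha-BFM and the strong intron summit of gro are shown as the strongest sites of the window outside bHLH promoters. Both are on the plus strand, with 50 bp on either side of the summit, and neither has a match in capitals.
Summit before E(spl)malpha-BFM, 3R:26009049-26009149: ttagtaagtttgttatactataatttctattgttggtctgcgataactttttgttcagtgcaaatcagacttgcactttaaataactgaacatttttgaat
Intron summit of gro, 3R:26042449-26042549: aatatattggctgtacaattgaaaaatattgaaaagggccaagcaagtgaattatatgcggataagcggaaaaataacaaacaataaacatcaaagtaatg
They had a GC content of 27.7 and 29.7%. Over the 13 summit centres the median GC content was 26.7%, with a range of 15.8 to 46.5%, against a median of 31.7% over all optimal summits. The centre had a lower GC content than its flanks, 200 to 250 bp away, at 11 of the 13 summits, against 77.7% of all optimal summits. The exceptions were the nearer E(spl)m7-HLH summit and the weakest gro summit.

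Sites of the Notch pathway's own DNA-binding protein were looked for, with other motifs, within 50 bp of each summit and in promoters from 250 bp before to 50 bp after the start site. Both strands were searched. The Su(H) motifs GTGGGAA and GTGAGAA were at none of the 13 summits, and over all optimal summits they were at 0.830% and 1.07%. In the promoters, GTGGGAA was present at E(spl)m5-HLH and E(spl)m8-HLH (3.59% of all promoters) and GTGAGAA at E(spl)m8-HLH (2.95% of all promoters). E(spl)mgamma-HLH and E(spl)mbeta-HLH, which had no optimal summit within 500 bp, held neither motif in their promoters, and nor did the bound members. Both genes with these letters are the ones with no CG30403 region within 500 bp. A link between the motifs and the absence of regions was not tested. Their promoters are shown 5′ to 3′ on the strand of the gene, with the matches in capitals, which run together where 2 motifs overlap, as CACACA and GTGAGAA do in E(spl)m8-HLH. Capitals also mark matches to the other motifs of the main search.
E(spl)m5-HLH promoter, 3R:26029686-26029985, minus strand: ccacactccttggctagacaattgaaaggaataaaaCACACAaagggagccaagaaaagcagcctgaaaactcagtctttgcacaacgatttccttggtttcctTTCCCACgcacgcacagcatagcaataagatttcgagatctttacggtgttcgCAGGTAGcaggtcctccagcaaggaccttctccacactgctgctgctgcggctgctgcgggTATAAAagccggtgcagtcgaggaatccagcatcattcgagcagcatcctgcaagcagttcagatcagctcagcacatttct
E(spl)m8-HLH promoter, 3R:26039990-26040289, plus strand: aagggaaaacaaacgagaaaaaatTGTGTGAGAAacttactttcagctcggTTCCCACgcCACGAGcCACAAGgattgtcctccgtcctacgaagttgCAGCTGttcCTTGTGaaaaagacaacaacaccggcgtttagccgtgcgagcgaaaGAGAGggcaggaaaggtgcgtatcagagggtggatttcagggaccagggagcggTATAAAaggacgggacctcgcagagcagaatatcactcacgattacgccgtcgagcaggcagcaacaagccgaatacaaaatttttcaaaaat
Promoter windows begin 250 bp before the start site, so they do not cover the summits of E(spl)m3-HLH and E(spl)mdelta-HLH or the farther one of E(spl)m7-HLH.

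The proneural E box CAGGTG was at 1 of the 13 summits, the nearer one of E(spl)m7-HLH, against 2.26% of all optimal summits. It was in the promoter window of E(spl)m7-HLH as well (9.32% of all promoters), which covers that summit. The proneural E box CAGCTG was at none of the 13 summits (3.45% of all) and in the promoter of E(spl)m8-HLH (17.7% of all promoters). Of the motifs bound by the Hairy/E(spl) repressors themselves, CACGTG was at none of the summits (0.805% of all) and in the promoters of E(spl)mdelta-HLH and E(spl)m7-HLH (4.20% of all promoters). CACGCG was at no summit (1.14% of all) and in no promoter of the 7 (6.12% of all promoters). The N box CACNAG was at no summit (9.74% of all) and in 4 of the 7 promoters (29.7% of all promoters). The promoter windows are longer than the summit windows, so counts in them are not compared with each other.

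GAGAG, the core of the GAGA factor motif, was at 2 of the 13 summits, those of E(spl)m3-HLH and the nearer one of E(spl)m7-HLH, against 8.38% of all optimal summits. It was in 5 of the 7 promoters, with 29.7% over all promoters. TATAAA was at 5 of the 13 summits, against 23.4%, and in 5 of the 7 promoters, against 45.8%. CACACA was at none of the 13 summits (5.81% of all) and in 5 of the 7 promoters (19.2% of all promoters). The Zelda motif CAGGTAG was at none of the 13 (0.345% of all) and in the promoter of E(spl)m5-HLH (1.64% of all promoters). The DRE motif TATCGATA was at none of the 13 (2.21% of all) and in none of the 7 promoters (9.36% of all promoters). Of 3 further motifs chosen after seeing the data, AAAATAT was at 4 of the 13 summits, against 16.9% of all optimal summits. TAAAAAA was at 4 of the 13, against 14.0%. AAAAATT was at 3 of the 13, against 12.1%. Most of the 8 matches of the fixed motifs at the 13 summits were TATAAA, and 25 bp on each side of the summit left 2 matches.

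The stretch from E(spl)m3-HLH to E(spl)m7-HLH was empty. Between the pooled summits at 26022503 and 26036606 there was no region of the pooled list over 14103 bp, and E(spl)m4-BFM, E(spl)m5-HLH and E(spl)m6-BFM lie in it. The median gap between neighbouring pooled summits was 1546 bp, and 1646 of 29994 gaps (5.49%) were at least this long. It was picked as the longest gap among the 32 pooled summits of the window. The share of single gaps therefore does not tell how usual it is as a longest gap. Replicate lists had 5 regions in it, 3 in replicate 1, none in replicate 2 and 2 in replicate 3, the strongest at rank 18010. Binding on both sides of E(spl)m5-HLH was thus separated by a stretch with background regions only.

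The complex was set beside windows of the same length to describe how densely it was bound. Of 2109 non-overlapping windows of 63.4 kb on the 6 arms, 52 (2.47%) held at least 13 optimal summits. The median window held 3, the fullest 20, and 551 held none. The windows were not screened for assembly gaps or repeats. In 310 windows with 12 to 16 protein-coding genes, a comparison added after seeing the data, the median was 5.5 and 15 windows (4.84%) held at least 13. With the stronger 50% of the optimal peaks the complex kept 11 summits, and 7 of the 2109 windows held at least 11. The complex thus stood in the upper tail of the distribution, less far among windows with a like number of genes, and the window of 13 summits includes 5 in the flanks.

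**Figure D4:**
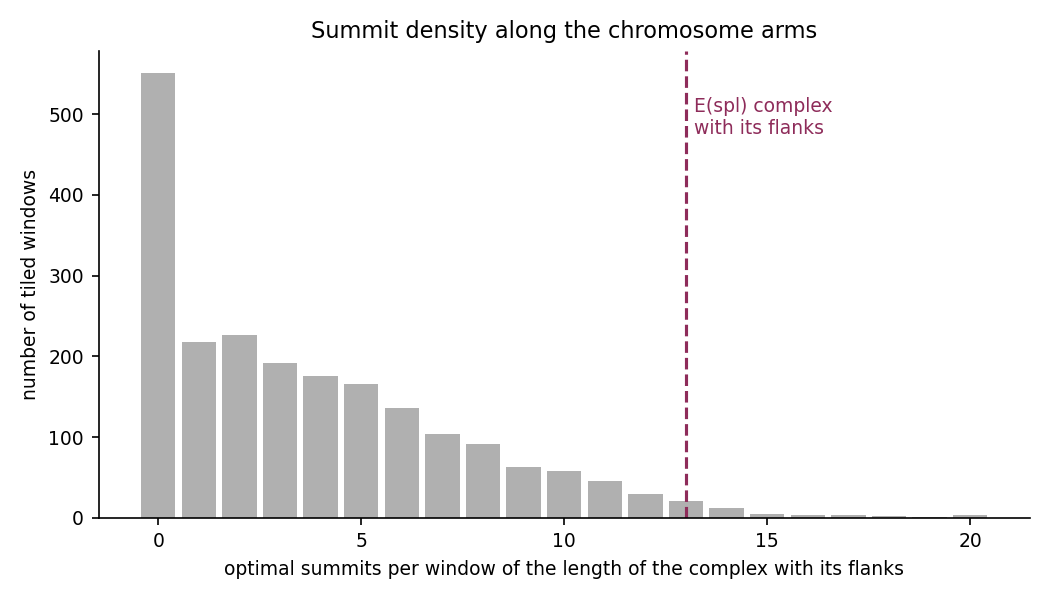
Number of 63.4 kb windows of the 6 arms (vertical axis) by number of optimal summits in the window (horizontal axis), with the complex and its flanks marked at 13. Most windows hold few summits (median 3), and 52 of 2109 hold 13 or more.

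Genes that act with the bHLH genes were read in the same way, in lists taken by symbol. Of the 5 other coding genes of the complex, Kaz-m1 was promoter-bound (95% exact interval 0.505 to 71.6%), in the optimal list and in every replicate. E(spl)malpha-BFM, E(spl)m2-BFM, E(spl)m4-BFM and E(spl)m6-BFM, the 4 Bearded family genes, were not. E(spl)m4-BFM and E(spl)m6-BFM had no region within 500 bp in any list, and at E(spl)malpha-BFM the best regions ranked 15172, 26870 and 10283 in replicates 1, 2 and 3, all outside the top lists. None of the 4 Bearded family genes matched outside the complex (Brd, BobA, Tom and Ocho) was bound, and the 95% exact interval of 0 of 4 reaches 60.2%. Kaz-m1 was thus the single bound gene among these, and neither group of Bearded family genes had a bound promoter, in a background of 30.2%.

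Of the Hairy/E(spl) family outside the complex, 0 of 5 genes were bound, with a 95% exact interval that reaches 52.2%. Of these, hry (hairy), the pair-rule repressor, had a region in the top list of replicate 1 at rank 5698, but ranked 13857 and 11010 in replicates 2 and 3. The neuroblast repressor dpn and the Hey gene had no optimal summit within 500 bp of a start site either. The list of proneural bHLH genes and their partners had 1 of 9 bound (11.1%, 95% exact interval 0.281 to 48.2%). That 1 gene was da (daughterless), which encodes the broadly expressed partner of proneural proteins, with a signal of 433 and ranks of 1954, 1997 and 1725. The proneural genes ac, sc and l(1)sc themselves had no optimal summit within 500 bp of a start site. The intervals of these lists include the background of 30.2%.

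Of the Notch pathway list, 15 of 22 genes were promoter-bound (68.2%, 95% exact interval 45.1 to 86.1%), in a background of 30.2%. The gene gro belongs to this list. It was chosen, like the others, with earlier results of these data known, so the interval is no test against the background. Top lists of replicates 1, 2 and 3 gave 14, 14 and 13 bound genes, against 28.1, 30.0 and 30.4% of all genes. In the optimal list and in every replicate 12 genes were bound, against 23.7% of all genes. The highest signals were at gro (1254), numb, the inhibitor of Notch in asymmetric division (1132), aph-1, a subunit of gamma-secretase (978), rumi, a glucosyltransferase of Notch (737), and neur, the ubiquitin ligase of Delta (608). Bound with lower signals were mam, the co-activator (390), Nedd4 (386), N, the receptor (241), Su(dx) (232), O-fut1 (223), pen-2 (204), dx (167), Su(H) (154), mib1 (135) and kuz (131). The ligand genes Dl and Ser and the antagonist H had no optimal summit within 500 bp of a start site. With the stronger 50% of the optimal peaks, 7 of the 22 remained bound, against 19.7% of all genes, so 8 of the 15 bound genes had signals in the weaker part of the list. All 3 bound bHLH genes stayed with the stronger 50%, against the same 19.7%.

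**Figure D5:**
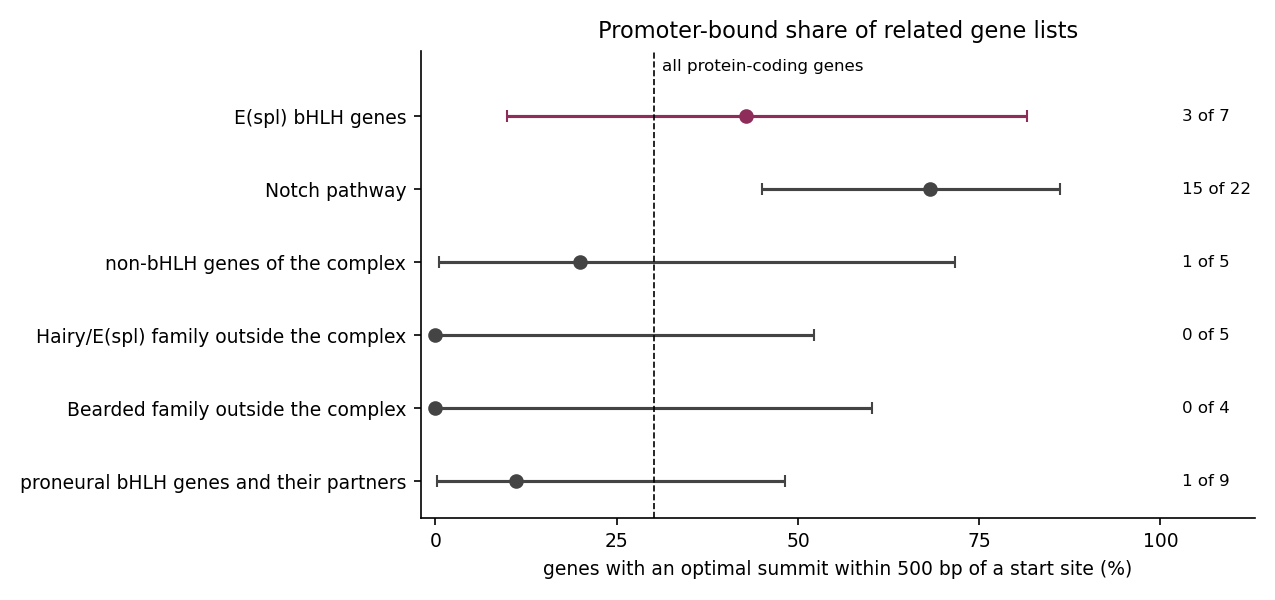
Share of genes that were promoter-bound in each list (points, in percent), with 95% exact binomial intervals (bars) and the share over all 13945 protein-coding genes (30.2%, dashed line). The bHLH genes stand at 42.9% with an interval that includes the line, and the Notch pathway list at 68.2% with an interval above it. The lists were chosen with earlier results of these data known, so the intervals describe counts and are no test against the line.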

How the data were processed

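ChIP-seq of eGFP-tagged CG30403 in whole embryos gave region lists for 3 biological replicates and for the pooled replicates, all on build dm6. Chromatin had been sonicated to 200 to 800 bp, per the labels. Regions were called by the authors on the pooled alignments with a shared control, per the deposited text notes; neither the aligner nor the peak caller is given there or in the labels. The signal value is a score deposited by the authors and was used for ranking within a list only. The −log10 q value deposited by the authors is a single value (4.23) over the optimal list and was not used. Lists on build dm3 were not used here.

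The annotation was that of Ensembl release 115, and bases were read from the RefSeq Release 6 assembly. Software was Python 3.11.15, pandas 2.3.3, numpy 2.4.6 and scipy 1.17.1; figures used matplotlib 3.10.9. A summit within 500 bp of an annotated start site made a gene promoter-bound. Scripts were tested on simulated data. With 1 group there was no comparison between conditions and no test; intervals are exact Clopper-Pearson and cover counting error only. Depth per sample is unknown. All 7 bHLH genes, all genes that start in the window, the bound genes of each list and its first 3 unbound genes were to be named; Kaz-m1 is the current symbol of E(spl)m1, and BobB and BobC matched no gene. The members, lists and motifs were chosen with earlier results of these data known.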

Additional observations from a re-analysis of the deposited data

How the results depend on the processing

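Of 43 alternatives, 32 left the count within 1.5 times of the reported one and 11 did not. Among the 32, the strongest regions of the pooled list called 4205 genes, as many as the optimal list. The optimal summits of the window have the same signals and ranks in both lists. This setting was thus hardly an alternative, and its equal count tells nothing about stability. A promoter window of 250 bp left 1 bound bHLH gene, E(spl)m7-HLH, in a background of 24.4% of all genes. It left 0 of the 5 other coding genes of the complex bound; 1000 bp gave 2 of these and 1 of the Hairy/E(spl) family outside it, against 34.0% of all genes. Without flanks the complex held 8 summits. A reciprocal overlap of 50% left 7 summits found in every replicate, against 53.1% of all optimal peaks. Motif matches at the summits numbered 2 with 25 bp and 13 with 100 bp on each side, against 8. The stronger 50% of peaks gave 7 bound Notch pathway genes, against 19.7% of all genes, and 7 windows as full as the complex in place of 52; windows with 12 to 16 coding genes, chosen after seeing the data, gave 15. The cause was not tested. Leaving out each replicate in turn, 3 bHLH genes (3 to 3) were bound in every remaining replicate, and 12 to 13 summits were found. These counts require every replicate, so they could not fall when 1 was left out.

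No paired analysis was possible because there is only 1 group. Counts of 7 genes are small, the score has no stated scale and depth is unknown, so a promoter with no region is one where none was detected, not one shown to be unbound. Embryos of all stages were pooled, and whether reads can be placed uniquely in the stretch around E(spl)m5-HLH was not tested.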

Other observations

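Beyond the gro side of the complex, binding went on. From 10 to 20 kb past E(spl)m8-HLH there were 4 more optimal summits, and from 10 to 20 kb before E(spl)mdelta-HLH there were 0. A pair of summits with signals of 443 and 333 lay at the shared promoter of Exo84, a subunit of the exocyst, and Vps2, a subunit of the ESCRT-III complex. One with a signal of 197 lay at Cmpk, and one with a signal of 534 lay at RpL34a, a ribosomal protein gene, and Trmt61. All 4 were within 500 bp of the start site of a coding gene, against 46.0% of all optimal summits. Of the 13 summits of the complex and its flanks, 9 were as well. These genes were named after their values were seen.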
